A study of Mus musculus with 22 samples.

Results

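The enzymes of mitochondrial fatty acid beta-oxidation were followed in macrophages of injured mouse muscle through 10 genes, namely Cpt1a, Cpt2, Acadvl, Acadl, Acadm, Hadha, Hadhb, Hadh, Acaa2 and Etfdh. They were taken by name from the 19938 genes that the arrays measured. All 10 were measured, and no filter on low values was applied. Each gene was read from the probe set with the highest mean among those that name only that gene. The tibialis anterior muscle of C57B6/J mice had been injected with cardiotoxin, a snake venom toxin that destroys muscle fibres and starts their regeneration. CD45+ blood-lineage cells were taken from the muscle with magnetic beads after 1, 2, 4 and 8 days and sorted with antibodies to Gr1 and Cx3cr1. The Gr1+/Cx3cr1low sort (here Gr1-positive) corresponds in the protocol to Ly6C+ F4/80low cells, and the Gr1-/Cx3cr1high sort (here Gr1-negative) to Ly6C- F4/80high cells. RNA of 8 groups was measured on 22 Affymetrix arrays, with 3 arrays per day and subset, except that Gr1-positive day 8 has 1. All groups shared the toxin, so that day 1 is the earliest reference and no uninjured muscle enters a comparison. Age, sex and the number of muscles per sort are not in the labels. The replicates are labelled as biological, but nothing says that they came from separate animals, so that p-values measure the spread between these samples.

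Beta-oxidation shortens fatty acids in the mitochondrial matrix by a repeated cycle that yields acetyl-CoA and reduced electron carriers. Cpt1a on the outer mitochondrial membrane and Cpt2 on the inner membrane pass long-chain acyl groups inward by way of carnitine. Acadvl, Acadl and Acadm are acyl-CoA dehydrogenases for very-long-, long- and medium-chain substrates, and Hadha and Hadhb form the trifunctional protein that completes the cycle on long chains. Hadh and Acaa2 carry out the later dehydrogenase and thiolase steps on shorter chains, and Etfdh hands the electrons of the dehydrogenases to ubiquinone. In macrophages the pathway is widely associated with resolving and repair-related states, whereas inflammatory activation is associated with glycolysis.

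Promoter sequences were matched by symbol in RefSeq (GRCm38.p6) for 9 of the 10 genes, and the 250 bases before the start that the sequence table uses were searched. For Cpt1a that start lies inside the annotated gene, so that its window is not upstream of the gene's outer end, whereas the other windows lie directly next to theirs. The nuclear receptor half-site AGGTCA (or TGACCT on the other strand), which PPAR and related receptors bind as part of longer elements, was found in 3 of the 9, those of Acadm, Acadvl and Cpt1a. It occurs in 14% of 32851 promoter windows of the same length. The core of the NRF1 motif, GCATGCGC (or GCGCATGC), was found in 2 of 9, those of Acadm and Etfdh, against 2.26% of all windows. The GC box GGGCGG (or CCGCCC) was found in 6 of 9 against 32.7%, and CCAAT (or ATTGG) in 3 of 9 against 33.9%. The NRF1 core overlaps itself on both strands in Etfdh, and no other matches overlap in these 9 windows. A match describes letters and not a site. Acadm is shown because it passed in 6 comparisons and holds both the half-site and the NRF1 core, Hadh because it changed most, Acadvl because it holds the half-site but passed no test, and Hadhb because it shares its upstream bases with Hadha. Capitals mark the half-site and the NRF1 core. The windows are chr3:153944644-153944893 for Acadm (minus strand), chr3:131272102-131272351 for Hadh (minus strand), chr11:70015429-70015678 for Acadvl (minus strand) and chr5:30155003-30155252 for Hadhb (plus strand).
Acadm: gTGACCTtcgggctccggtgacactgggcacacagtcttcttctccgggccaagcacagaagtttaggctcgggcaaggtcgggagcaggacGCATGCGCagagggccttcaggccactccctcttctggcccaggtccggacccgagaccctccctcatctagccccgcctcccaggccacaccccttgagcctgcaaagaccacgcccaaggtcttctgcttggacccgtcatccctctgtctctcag
Hadh: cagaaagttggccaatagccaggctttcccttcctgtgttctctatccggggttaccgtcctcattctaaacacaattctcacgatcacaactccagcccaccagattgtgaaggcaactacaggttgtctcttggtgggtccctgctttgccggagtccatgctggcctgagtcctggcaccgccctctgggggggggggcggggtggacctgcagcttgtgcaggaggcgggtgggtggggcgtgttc
Acadvl: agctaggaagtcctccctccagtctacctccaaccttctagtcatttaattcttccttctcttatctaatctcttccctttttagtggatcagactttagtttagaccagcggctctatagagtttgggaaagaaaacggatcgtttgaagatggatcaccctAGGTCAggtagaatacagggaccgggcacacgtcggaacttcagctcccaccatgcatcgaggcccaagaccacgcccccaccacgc
Hadhb: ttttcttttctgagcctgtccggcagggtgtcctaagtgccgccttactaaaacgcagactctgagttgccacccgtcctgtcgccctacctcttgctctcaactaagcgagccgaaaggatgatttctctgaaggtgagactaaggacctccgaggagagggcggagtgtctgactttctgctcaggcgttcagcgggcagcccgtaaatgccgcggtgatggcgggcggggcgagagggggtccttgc
Hadha and Hadhb start 272 bases apart on opposite strands. The leading 228 of the 250 bases printed for Hadhb (chr5:30155003-30155230) are therefore also the upstream bases of Hadha, read on the other strand.

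Values are log2 signals, so that a difference of 1 is a doubling. The array medians lay between 7.02 and 7.18. Of 11 measured macrophage and leukocyte identity genes, Cd68 and Lyz2 are named here. Both were high in every group: group means of Cd68 ran from 12.7 to 12.9 and those of Lyz2 from 12.9 to 13.3. The summed linear signal of the 11 genes ran from 41934 to 48915.5 over the arrays. Cx3cr1, the gene of one sort marker, did not pass between the subsets at any day (differences of 0.27 to 0.46). Differences below are log2 values ± the standard error (SE) of a linear model with 1 mean per group (limma), and a gene passed at a Benjamini-Hochberg adjusted p under 0.05 over all 19938 genes. The arrays numbered 1 of both day 2 subsets had the lowest value of their group for 10 of 10 enzyme genes. For all genes these arrays were lowest in 45.0% (Gr1-negative) and 49.0% (Gr1-positive). Other arrays did the same: Gr1-positive replicate 3 of day 4 was lowest for 10 of 10 enzyme genes (27.4% of all genes). Gr1-negative replicate 1 of day 1 was lowest for 9 of 10 (31.3%), and Gr1-negative replicate 3 of day 4 for 7 of 10 (29.0%). In bulk RNA, fewer cells of a type and less RNA per cell cannot be told apart.

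In Gr1-negative cells part of the enzyme genes rose after day 1 and part of them fell after day 4. From day 1 to day 4, 5 of 10 rose (Cpt1a, Cpt2, Acadl, Acadm and Hadh) and none fell, where 15.5% of all genes rose. The median difference of the 10 was 0.45, against -0.06 for all genes. Between days 1 and 2, 3 of 10 rose (Acadl, Hadh and Acaa2), against 3.8% of all genes, with a median of 0.41. Between days 2 and 4 none passed by the limma test, nor at an unadjusted p under 0.05, while 14.8% of all genes passed in either direction and 27.2% did so unadjusted. From day 4 to day 8, 3 of 10 fell (Cpt2, Hadha and Hadh), against 7.34% of all genes, and the other 7 also had negative differences (median -0.36; all genes 0.00). At day 8, 2 of 10 (Acadl and Hadh) were still above day 1, against 8.68% of all genes, and the median was 0.06. These comparisons share arrays.

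The count for day 1 to day 4 lay between 4 and 6 when each array was left out. That for day 1 to day 2 was 1 without any of the 3 day 1 arrays or without replicate 2 or 3 of day 2, and 8 without both day 2 arrays numbered 1. For day 4 to day 8 it was 0 without replicate 1 of day 4 or of day 8, 1 without replicate 2 of day 8, and 6 without both day 2 arrays numbered 1, which enter only through the shared spread. For day 1 to day 8 it was 0 without replicate 1 of day 1 or replicate 3 of day 8, and 1 without any other of these 6 arrays.

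In Gr1-positive cells, too, no enzyme gene fell and several rose by day 4. From day 1 to day 4, 4 of 10 rose (Cpt1a, Acadm, Hadh and Acaa2), where 16.2% of all genes rose. The median was 0.34, against 0.00 for all genes. Between days 1 and 2 none passed by limma, against 0.291% of all genes, while 4 of 10 reached an unadjusted p under 0.05, as did 12.3% of all genes. Between days 2 and 4 only Hadh rose, 1 of 10 against 11.8%. Day 8 rests on 1 array, whose spread is taken from the other groups. Against it 3 of 10 had fallen from day 4 (Cpt2, Acadm and Hadha; 4.62% of all genes), with a median of -0.51. The single array had the lowest of all 22 values for Hadha, Hadhb, Acaa2 and Etfdh.

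The count for day 1 to day 4 was 3 or 4 with each array left out. For day 1 to day 2 it was 1 without replicate 3 of day 1 and 3 without replicate 1 of day 2. For day 2 to day 4 it was 0 without replicate 1 of either day and 3 without replicate 2 of day 2. For day 4 to day 8 it was 1 without replicate 1 or 2 of day 4, and 5 without both day 2 arrays numbered 1.

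**Figure D1:**
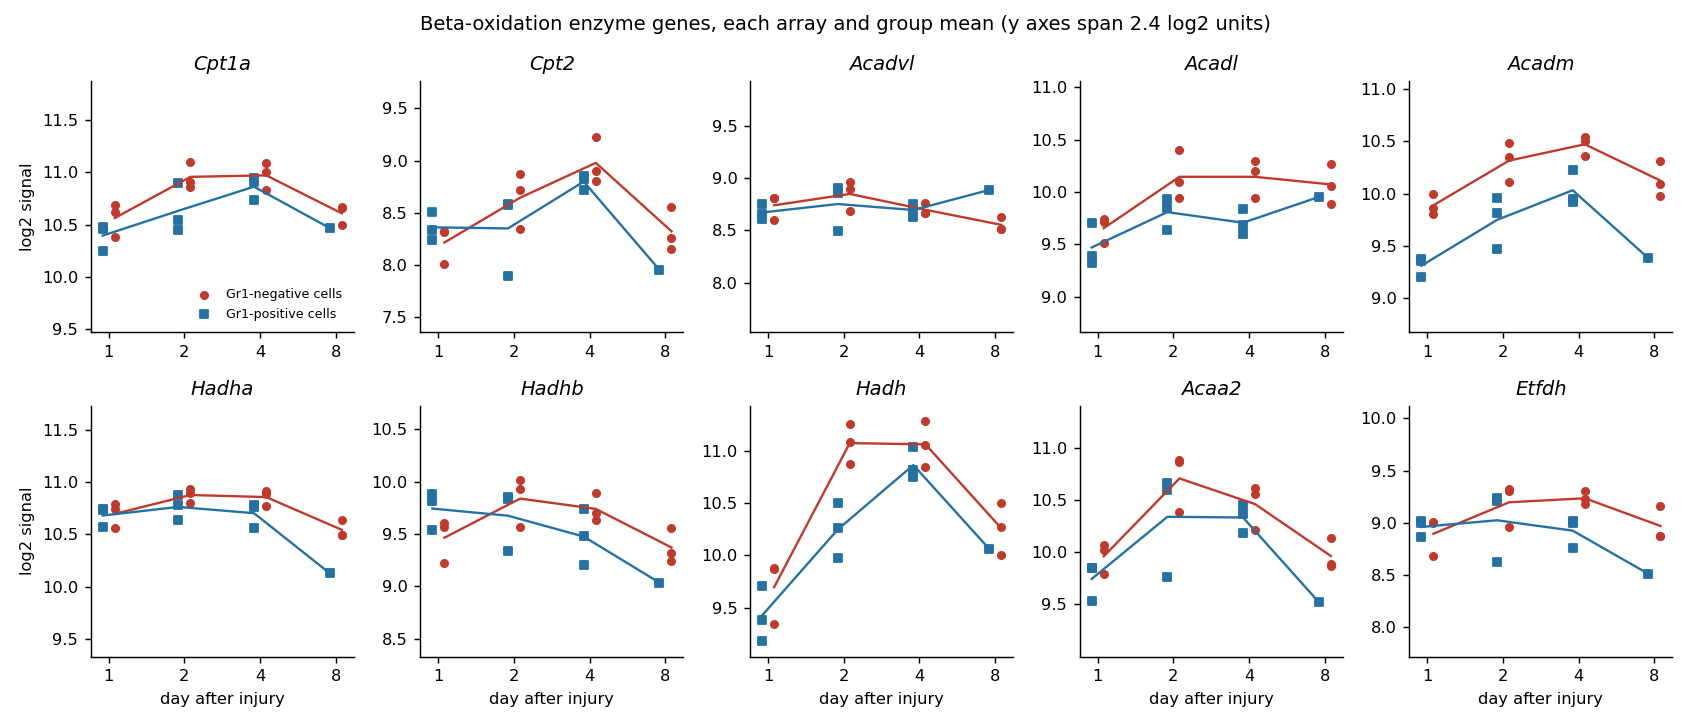
Log2 signal (y axis, each panel spanning 2.4 units) of the 10 enzyme genes by day after injury (x axis, days 1, 2, 4 and 8 evenly spaced). Points are single arrays of Gr1-negative (red circles) and Gr1-positive (blue squares) cells and lines join group means, so that Hadh stands out for its rise from day 1 to day 4, Acadm for the gap between the subsets, and Acadvl for its flat course. Levels are not comparable between genes.

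Of the carnitine palmitoyltransferase genes, Cpt1a rose from day 1 to day 4 in both subsets and Cpt2 in Gr1-negative cells. Cpt1a, whose enzyme is the rate-limiting entry of long-chain fatty acids, gave 10.38, 10.69 and 10.62 in the Gr1-negative arrays of day 1. It gave 10.86, 11.10 and 10.91 at day 2, 11.09, 11.00 and 10.83 at day 4, and 10.67, 10.66 and 10.50 at day 8. All Gr1-negative arrays of days 2 and 4 were thus above all those of days 1 and 8. Its Gr1-positive values were 10.25, 10.48 and 10.46 at day 1, 10.45, 10.90 and 10.55 at day 2, 10.95, 10.91 and 10.74 at day 4, and 10.47 at day 8. The day 4 arrays did not overlap those of day 1 in either subset. The rise from day 1 to day 4 was 0.41 ± 0.12 for the Gr1-negative (adjusted p = 0.0159) and 0.47 ± 0.12 for the Gr1-positive cells (adjusted p = 0.0058). The former was lost without replicate 1 of day 1 or of day 4 (adjusted p = 0.0970 and 0.0788). The later difference of -0.36 to day 8 in Gr1-negative cells did not pass (adjusted p = 0.0564).

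Cpt2, which reforms acyl-CoA inside the matrix, gave 8.01, 8.32 and 8.32 in Gr1-negative cells at day 1 and 8.35, 8.87 and 8.71 at day 2. It gave 9.23, 8.80 and 8.90 at day 4 and 8.15, 8.26 and 8.56 at day 8. The day 4 arrays lay above all arrays of days 1 and 8, with a rise of 0.76 ± 0.17 (1.69-fold, adjusted p = 0.00282) followed by a fall (-0.65 ± 0.17, adjusted p = 0.0259). The fall was lost without replicate 1 of day 4 or replicate 1 or 2 of day 8 (adjusted p = 0.0919 to 0.123). Gr1-positive values were 8.33, 8.51 and 8.24 at day 1, 7.89, 8.58 and 8.58 at day 2, 8.85, 8.83 and 8.72 at day 4, and 7.96 at day 8. Here too the arrays of days 1 and 4 did not overlap, but the difference of 0.44 ± 0.17 did not pass (adjusted p = 0.0763). The fall to the single day 8 array was -0.84 ± 0.25 (adjusted p = 0.0482), and it was lost without any of the 3 day 4 arrays (adjusted p = 0.0570 to 0.109).

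Of the acyl-CoA dehydrogenase genes, Acadm and Acadl rose and Acadvl passed no test in the main fit. Acadm, for medium chains, gave 9.80, 9.86 and 9.998 in Gr1-negative cells at day 1 and 10.11, 10.48 and 10.35 at day 2. It gave 10.54, 10.36 and 10.50 at day 4 and 9.97, 10.09 and 10.31 at day 8. In Gr1-positive cells it gave 9.37, 9.21 and 9.35 at day 1, 9.47, 9.96 and 9.81 at day 2, 10.23, 9.95 and 9.92 at day 4, and 9.38 at day 8. Every Gr1-negative array was above every Gr1-positive array of its day, at all 4 days. The rise from day 1 to day 4 was 0.58 ± 0.13 in Gr1-negative (adjusted p = 0.00207) and 0.72 ± 0.13 in Gr1-positive cells (adjusted p = 0.000287). Both rises passed with each array left out in turn. The fall to the single day 8 array was -0.65 ± 0.18 (adjusted p = 0.0406), and was lost without replicate 1 or 2 of day 4 (adjusted p = 0.117 and 0.0577).

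Acadl, for long chains, gave 9.74, 9.51 and 9.71 in Gr1-negative cells at day 1 and 9.94, 10.09 and 10.40 at day 2. It gave 9.94, 10.29 and 10.20 at day 4 and 10.06, 9.89 and 10.27 at day 8. The 3 arrays of day 1 lay below all 9 later ones. Its difference from day 4 to day 8 was -0.07 (95% interval -0.36 to 0.22). The rises from day 1 were 0.49 ± 0.14 to day 2 (adjusted p = 0.0463), 0.49 ± 0.14 to day 4 (adjusted p = 0.0126) and 0.42 ± 0.14 to day 8 (adjusted p = 0.0406). The rise to day 4 was lost without replicate 2 of either day (adjusted p = 0.0606 and 0.0638), and those to days 2 and 8 without any of 5 of their 6 arrays. The exceptions were replicate 1 of day 2 and replicate 2 of day 8. In Gr1-positive cells Acadl ran from 9.32 to 9.70 at day 1 and from 9.60 to 9.83 at day 4, which overlap, and no step passed.

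Acadvl, for very long chains, had the narrowest range of the 10 genes. Its 22 values lay between 8.49 and 8.96. From day 1 to day 4 the difference was -0.04 (95% interval -0.26 to 0.17) in Gr1-negative cells and 0.02 (-0.19 to 0.24) in Gr1-positive cells. It passed in none of the 16 comparisons of the main fit. At day 8 its subset difference was -0.33 (95% interval -0.64 to -0.03), with 1 Gr1-positive array, while 9 of 10 genes were above 0. Under the processing alternatives it passed as lower in Gr1-negative cells from day 2 to 4 in 2 of 6 fits (lowest limma adjusted p = 0.0247). The steps from day 1 to 4 and from day 1 to 8 each passed as lower in 1 of 6 fits.

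Neither trifunctional protein gene passed between days 1 and 4 in either subset. Hadha, the alpha subunit, gave 10.56, 10.74 and 10.79 in Gr1-negative cells at day 1, 10.89, 10.92 and 10.77 at day 4, and 10.50, 10.49 and 10.64 at day 8. The day 8 arrays lay below the day 4 arrays, a fall of -0.31 ± 0.09 (adjusted p = 0.0371). This call was lost without replicate 1 or 2 of either day (adjusted p = 0.113 to 0.130). In Gr1-positive cells Hadha gave 10.77, 10.78 and 10.56 at day 4 and 10.13 at day 8, the lowest value of all 22 arrays. That fall of -0.57 ± 0.13 (adjusted p = 0.0163) passed with each day 4 array left out, but it rests on 1 array of day 8.

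Hadhb, the beta subunit, passed in no comparison. Group means ran from 9.04 (1 array) to 9.84. Its difference from day 1 to day 4 was 0.28 (95% interval -0.07 to 0.62) in Gr1-negative cells and -0.27 (-0.62 to 0.08) in Gr1-positive cells. The subset difference changed by 0.54 (0.05 to 1.03) over this step, which did not pass by limma (adjusted p = 0.770). Hadhb has a pair of probe sets. The one used stands in the array's numbering between probe sets of Kcna4 and Kif18a, which lie on chromosome 2, and the other between Garem2 and Selenoi on chromosome 5, where Hadhb lies. Of adjacent probe sets on the array, 94.3% lie on 1 chromosome. The pair differed by at most 0.179 on any array, with Pearson's r of 0.995 over the 22 arrays, and neither the other set nor the mean of both changed a call. Over the same arrays Hadha and Hadhb, which share upstream bases, had an r of 0.85. Hadhb and Etfdh, which lie on different chromosomes, had an r of 0.846. The arrays share groups and hybridisations, so that this is a description.

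Hadh, the short-chain hydroxyacyl-CoA dehydrogenase, changed more than any other of the 10 between days 1 and 4. In Gr1-negative cells it gave 9.34, 9.86 and 9.88 at day 1, 10.88, 11.26 and 11.08 at day 2, 11.28, 11.05 and 10.84 at day 4, and 10.01, 10.27 and 10.50 at day 8. In Gr1-positive cells it gave 9.18, 9.38 and 9.71 at day 1, 9.97, 10.50 and 10.26 at day 2, 11.03, 10.81 and 10.74 at day 4, and 10.06 at day 8. Every array of day 4 was above every array of days 1 and 8 in its subset. The rise from day 1 to day 4 was 1.37 ± 0.18 in Gr1-negative (2.58-fold, adjusted p = 1.75e-05) and 1.44 ± 0.18 in Gr1-positive cells (2.71-fold, adjusted p = 8.76e-06). Both kept passing with each array left out. From day 1 to day 2 it rose in Gr1-negative cells (1.38 ± 0.18, adjusted p = 0.000519), while the Gr1-positive cells had a difference of 0.82 ± 0.18 (adjusted p = 0.0538) and a rise of 0.62 ± 0.18 to day 4 (adjusted p = 0.0197). That last step was lost without replicate 1 of day 2 or of day 4 (adjusted p = 0.0999 and 0.0891). Whether the steps differ between the subsets was tested directly and did not pass as fitted here, with 1 mean per group: the subset difference changed by 0.56 ± 0.25 from day 1 to day 2 (adjusted p = 0.9997) and by -0.63 ± 0.25 from day 2 to day 4 (adjusted p = 0.748).

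At day 8 Hadh had fallen in Gr1-negative cells (-0.80 ± 0.18 from day 4, adjusted p = 0.0124) but was above day 1 (0.56 ± 0.18, adjusted p = 0.0335). The fall was lost without replicate 1 of day 4 or of day 8 (adjusted p = 0.0663 and 0.0679), and the remaining rise without replicate 1 of day 1 or replicate 2 or 3 of day 8 (adjusted p = 0.0889 to 0.180).

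The thiolase gene Acaa2, whose enzyme releases acetyl-CoA, gave 9.79, 10.02 and 10.07 in Gr1-negative cells at day 1, 10.38, 10.88 and 10.86 at day 2, 10.62, 10.55 and 10.21 at day 4, and 9.89, 9.87 and 10.13 at day 8. All 6 arrays of days 2 and 4 were above all 6 of days 1 and 8. The rise to day 2 was 0.74 ± 0.19 (adjusted p = 0.0309), and was lost without any day 1 array or replicate 2 or 3 of day 2 (adjusted p = 0.0526 to 0.180). Gr1-positive values were 9.53, 9.85 and 9.85 at day 1, 9.76, 10.66 and 10.60 at day 2, 10.36, 10.45 and 10.19 at day 4, and 9.52 at day 8. Replicate 1 of day 2 stood below both others of its group. The rise from day 1 to day 4 was 0.59 ± 0.19 (adjusted p = 0.0293), and was lost without replicate 1 of day 1 or replicate 1 or 2 of day 4 (adjusted p = 0.0766 to 0.140).

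Etfdh, the ubiquinone reductase that collects electrons from all the acyl-CoA dehydrogenases, passed in no comparison. Group means ran from 8.51 (1 array) to 9.23. From day 1 to day 4 its difference was 0.34 (95% interval 0.03 to 0.65, adjusted p = 0.106) in Gr1-negative cells and -0.04 (-0.34 to 0.27) in Gr1-positive cells. In the order of group means most neighbouring groups overlapped, for every one of the 10 genes, so that the order is a coarse one.

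**Figure D2:**
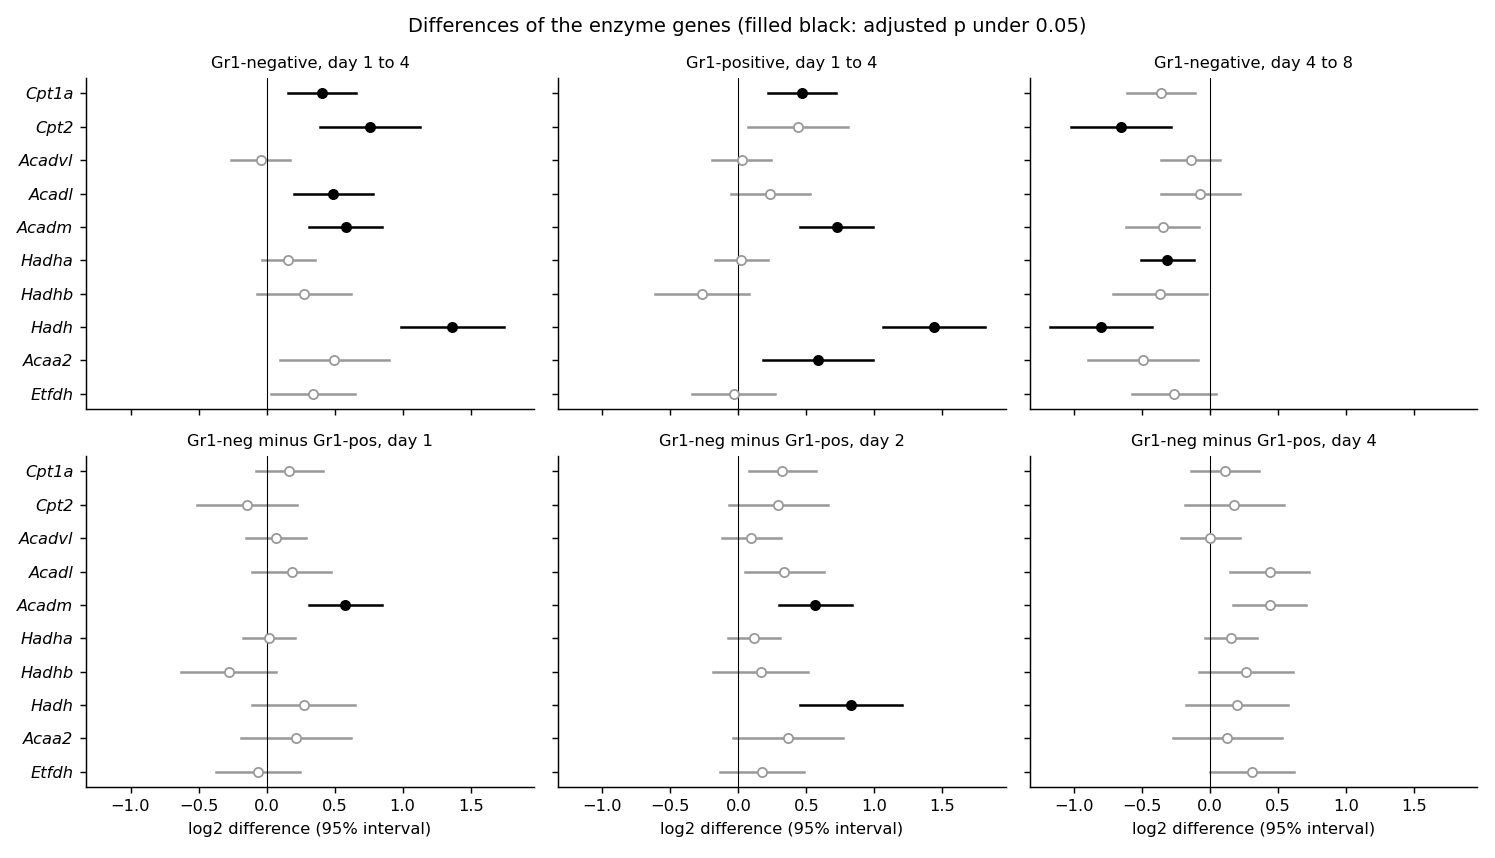
Log2 difference (x axis) with its 95% interval for each of the 10 enzyme genes (y axis) in 6 comparisons. Filled black points passed at an adjusted p under 0.05 in the fit with 1 mean per group. In the day 1 to 4 panels Hadh lies farthest to the right (1.37 and 1.44), Acadvl sits near 0, and in the lower row Acadm is above 0 at days 1, 2 and 4, though only the differences of days 1 and 2 passed.

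In the fit with 1 mean per group, few of these genes passed between the subsets at any day. With same-numbered arrays of a day taken as pairs, the counts were higher at days 2 and 4 and lower at day 8, as given at the end. At day 1, 1 of 10 was higher in Gr1-negative cells (Acadm, 0.58 ± 0.13, 1.49-fold, adjusted p = 0.0349), against 0.682% of all genes. At day 2 there were 2 of 10, Acadm (0.57 ± 0.13, adjusted p = 0.0197) and Hadh (0.83 ± 0.18, 1.77-fold, adjusted p = 0.0157), against 2.85%. The 3 Gr1-negative arrays of day 2 were above the 3 Gr1-positive ones for both genes. At day 4 none passed, against 0.717% of all genes in either direction, while 3 of 10 had an unadjusted p under 0.05, as did 11.9% of all genes. Acadm differed there by 0.44 (95% interval 0.17 to 0.71) and Acadl by 0.44 (0.15 to 0.73). At day 8, Acadm was again the 1 of 10 that was higher (0.74 ± 0.18, adjusted p = 0.0409), against 1.33% of all genes and 1 Gr1-positive array. All 10 differences were above 0 at days 2 and 4, with medians of 0.31 and 0.19, where the medians of all genes were -0.03 on both days.

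No call of a subset difference held with every array left out. The Acadm call of day 1 was lost without any of its 6 arrays (adjusted p = 0.0577 to 0.176). At day 2 both calls were lost without replicate 1 or 3 of the Gr1-positive or replicate 2 or 3 of the Gr1-negative arrays (adjusted p = 0.0550 to 0.140), and the Hadh call also without both arrays numbered 1 (adjusted p = 0.0698). The Acadm call of day 8 was lost without Gr1-negative replicate 2 or 3 (adjusted p = 0.0777 and 0.122). With single arrays left out, the Acadm difference lay between 0.52 and 0.62 at day 1, between 0.43 and 0.67 at day 2 and between 0.65 and 0.82 at day 8, and the Hadh difference of day 2 between 0.69 and 0.96. The lowest Acadm value of day 2 was that without Gr1-positive replicate 1.

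Whether the subset difference changed between days was tested directly. With 1 mean per group, no enzyme gene passed by limma for the change from day 1 to 2, day 2 to 4 or day 1 to 4, and 1 of 10 had an unadjusted p under 0.05 in each. Of all genes 0%, 0.015% and 0.0953% passed, and 3.26%, 5.51% and 5.83% did so unadjusted. The intervals are wide, reaching from -0.42 to 1.09, from -1.16 to 0.59 and from -0.66 to 1.03 over the 10 genes.

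Markers of other cell types also differed between the subsets. Of 8 markers of dendritic cells, the Gr1-negative sort had 5 higher at day 1 and 6 at day 2, among them Ccr7 (3.23 ± 0.32 at day 1) and Cd209a (2.46 ± 0.52 at day 2). Of all genes, 0.682% were higher at day 1 and 2.85% at day 2. Their summed linear signal at day 1 was 4810 to 8679 in Gr1-negative and 1252 to 1305 in Gr1-positive arrays, and at day 2 it was 3983 to 6184 and 1346 to 1716. Of 12 neutrophil markers, 4 were lower in Gr1-negative cells at day 1 and 3 at day 2, among them S100a9 (-1.92 ± 0.25 at day 1). Of all 19938 genes, 35 were lower at day 1 and 136 at day 2. The neutrophil sums at day 1 were 2327 to 3256 in Gr1-negative and 5531 to 5888 in Gr1-positive arrays. Of 8 T and NK cell markers, 2 were higher at day 1 and 1 at day 2, and their sums at day 1 were 1762 to 2614 in Gr1-negative and 747 to 840 in Gr1-positive arrays. At day 8 the dendritic sums were 6159.5 to 11648.5 in Gr1-negative arrays and 2983.6 in the 1 Gr1-positive array. The neutrophil sums of day 8 were 1902 to 2255 in Gr1-negative arrays and 5116 in the Gr1-positive array. At day 4 no enzyme gene passed in the fit with 1 mean per group. The dendritic sums of day 4 were 6794 to 12062 in Gr1-negative and 4394 to 5912 in Gr1-positive arrays. The neutrophil sums of day 4 were 2484 to 2814 and 3035 to 3977, and the T and NK sums 2575 to 5337 and 3375 to 12987. The part of these cells in the Acadm and Hadh differences was not tested.

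Genes around the 10 were taken from lists by pathway. The other genes of mitochondrial beta-oxidation moved in the same direction as the 10. These 17 include genes for short, branched, odd and unsaturated chains and for electron carriers. In Gr1-negative cells 13 of 17 rose from day 1 to day 4, against 15.5% of all genes, and none fell, with a median of 0.56. Decr1, which removes awkward double bonds, rose by 1.14 ± 0.22, Echs1, the short-chain hydratase, by 0.99 ± 0.17, Acad11 by 0.78 ± 0.16, Pcca of propionyl-CoA carboxylase by 0.77 ± 0.17 and Eci2 by 0.73 ± 0.23. The electron carrier genes Etfa and Etfb, the partners of Etfdh, did not pass (0.13 ± 0.12 and 0.14 ± 0.15). In Gr1-positive cells 11 of 17 rose, against 16.2% of all genes, and none fell (median 0.56), among them Decr1 (1.23 ± 0.22), Echs1 (0.90 ± 0.17) and Pcca (0.90 ± 0.17). After day 4, 6 of 17 had fallen by day 8 in Gr1-negative cells, against 7.34% of all genes, and none rose, led by Echs1 (-0.85 ± 0.17) and Eci2 (-0.76 ± 0.23). Between days 1 and 2, 9 of 17 rose in Gr1-negative cells, against 3.8% of all genes.

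Peroxisomal oxidation, which shortens very long chains, rose in part. In Gr1-negative cells 7 of 13 genes rose from day 1 to day 4 and none fell (median 0.45), and in Gr1-positive cells 4 of 13 (median 0.30), against 15.5% and 16.2% of all genes. Abcd2, a peroxisomal importer of very-long-chain acyl-CoA, rose by 3.03 ± 0.23 and 2.87 ± 0.23, more than any of the 10 mitochondrial genes. Acox3, an acyl-CoA oxidase, rose by 1.32 ± 0.16 and 1.41 ± 0.16. Of 5 other carnitine genes, 3 rose in Gr1-negative cells, with Crot, the peroxisomal carnitine octanoyltransferase, at 1.70 ± 0.21. In Gr1-positive cells 3 rose and 1 fell, Crot at 1.65 ± 0.21 and the carnitine carrier Slc25a20 at -0.58 ± 0.17.

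Carbohydrate and central pathways took other courses. Of 14 glycolysis genes, 11 fell and none rose from day 1 to day 4 in each subset, where 8.67% (Gr1-negative) and 9.42% (Gr1-positive) of all genes fell. The medians were -0.70 and -0.60. The lactate exporter Slc16a3 fell most (-1.92 ± 0.18 and -1.63 ± 0.18), followed by the glucose transporter Slc2a1 (-1.84 ± 0.15 and -1.53 ± 0.15). Of 16 TCA cycle genes, 4 rose and 3 fell in Gr1-negative cells and 4 rose and 5 fell in Gr1-positive cells, with medians of -0.02 and 0.02. Of all genes 15.5% and 16.2% rose. Idh3g rose (0.50 ± 0.09 and 0.58 ± 0.09) while Idh3a, of the same enzyme, fell (-0.61 ± 0.14 and -0.66 ± 0.14). Pdk2, a kinase that switches off pyruvate dehydrogenase, rose by 1.83 ± 0.15 and 1.75 ± 0.15, the largest change in its list of 10 genes. From day 4 to day 8 in Gr1-negative cells 3 of 14 glycolysis genes rose, among them Slc2a1 (0.61 ± 0.15), against 3.17% of all genes.

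Among 12 fatty acid synthesis genes, 3 rose and 3 fell in Gr1-negative cells from day 1 to day 4, and 4 rose and 1 fell in Gr1-positive cells. Over this step 15.5% of all genes rose and 8.67% fell in Gr1-negative cells, and 16.2% rose and 9.42% fell in Gr1-positive cells. The desaturase genes Scd2 (1.49 ± 0.17 and 1.49 ± 0.17) and Fads1 (1.18 ± 0.18 and 1.55 ± 0.18) rose, while the synthase Fasn fell (-0.53 ± 0.15 and -0.52 ± 0.15). Of 10 uptake and activation genes, 1 rose and 3 fell in Gr1-negative cells and 3 rose and 3 fell in Gr1-positive cells. The thioesterase Acot2 rose (1.11 ± 0.16 and 1.35 ± 0.16), and the ligase Acsl4 (-0.88 ± 0.14 and -1.13 ± 0.14) and the scavenger receptor Cd36 (-0.46 ± 0.13 and -0.47 ± 0.13) fell. Of 3 ketone body genes 1 rose in each subset, Oxct1 (0.59 ± 0.13 and 0.51 ± 0.13), which serves the use of ketone bodies.

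**Figure D3:**
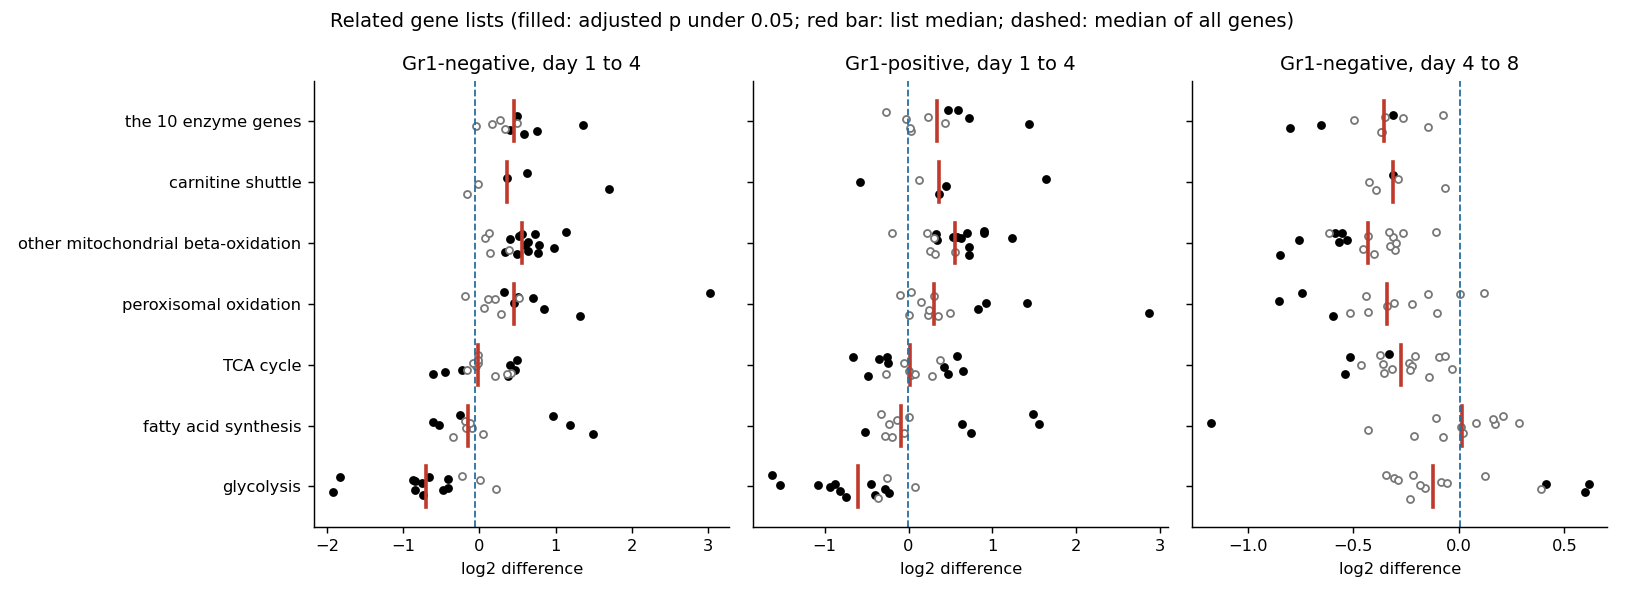
Log2 difference (x axis) of each gene in 7 lists (y axis) for day 1 to 4 in Gr1-negative and Gr1-positive cells and day 4 to 8 in Gr1-negative cells. Filled points passed, red bars are list medians and the dashed line is the median of all genes. The bars of both mitochondrial lists are right of the line from day 1 to 4 (0.45 and 0.56 in Gr1-negative cells) and left of it from day 4 to 8 (-0.36 and -0.43), and glycolysis is left of it from day 1 to 4 (-0.70 and -0.60).

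Of 18 regulators of the pathway, 6 rose and 1 fell from day 1 to day 4 in Gr1-negative cells, and 7 rose and 3 fell in Gr1-positive cells. Of all genes 15.5% rose and 8.67% fell in the former and 16.2% rose and 9.42% fell in the latter. Lpin1, a phosphatidate phosphatase that also acts as a co-activator with PPAR alpha, rose by 1.51 ± 0.18 and 1.72 ± 0.18. The mitochondrial deacetylase gene Sirt3 rose by 0.81 ± 0.12 and 0.89 ± 0.12, and Mlycd, which removes the malonyl-CoA that inhibits Cpt1a, by 0.70 ± 0.15 and 0.71 ± 0.15. The co-activator gene Ppargc1b rose by 0.36 ± 0.10 and 0.62 ± 0.10. Ppara itself did not pass (-0.11 ± 0.09 and -0.07 ± 0.09). Pparg passed from day 1 to day 4 in Gr1-positive cells (0.90 ± 0.15) but not in Gr1-negative cells (0.26 ± 0.15), where it had risen from day 1 to day 2 (0.73 ± 0.15). The difference between the subsets in the step from day 1 to day 4 did not pass (-0.64, adjusted p = 0.526). Among 6 measured PPAR targets outside oxidation, 2 rose and 2 fell from day 1 to day 4 in Gr1-negative cells, and 2 rose and 1 fell in Gr1-positive cells. Angptl4 (1.503 ± 0.22 and 1.37 ± 0.22) and Lpl (1.02 ± 0.22 and 1.47 ± 0.22) rose and Hilpda fell (-1.40 ± 0.13 and -1.44 ± 0.13). Plin2, of the lipid droplet coat, fell in Gr1-negative cells (-0.25 ± 0.07) and had a difference of -0.16 ± 0.07 in Gr1-positive cells that did not pass.

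Signal of other cells changed over the same days. Muscle fibres are rich in these enzymes. Of 15 muscle fibre markers, 5 rose from day 1 to day 4 in Gr1-negative cells (15.5% of all genes), and 9 rose from day 4 to day 8 (3.17% of all genes), the step in which 3 of 10 enzyme genes fell. Their summed linear signal was 2434 to 2850 at day 1, 3306 to 3997 at day 4 and 4302 to 6515 at day 8 in Gr1-negative cells. In Gr1-positive cells it was 2565 to 2770 at day 1 and 3208 to 3412 at day 4. There 4 of 15 rose over this step, against 16.2% of all genes. Myl1 rose most from day 1 to day 4, by 1.68 ± 0.33 in Gr1-negative cells and 1.65 ± 0.33 in Gr1-positive cells. None of 5 adipocyte markers passed by limma in any of the 16 comparisons, and their sums stayed between 495 and 624 on all arrays.

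Of 8 dendritic markers, those that rose from day 1 to day 4, where 15.5% (Gr1-negative) and 16.2% (Gr1-positive) of all genes rose, were 4 in Gr1-negative cells (sums of 4810 to 8679 at day 1 and 6794 to 12062 at day 4) and 6 in Gr1-positive cells (1252 to 1305 and 4394 to 5912). By day 8, 3 of 8 had fallen from day 4 in Gr1-negative cells, against 7.34% of all genes, Xcr1 most (-2.10 ± 0.17). Of 8 T and NK cell markers, 4 rose from day 1 to day 4 in Gr1-negative cells and 7 in Gr1-positive cells, where the sums went from 747 to 840 at day 1 to 3375 to 12987 at day 4. Of 12 neutrophil markers, 5 and 6 fell and 1 rose in each subset over that step, where 8.67% and 9.42% of all genes fell. Fibroblast markers rose in 4 of 6 cases from day 1 to day 8 in Gr1-negative cells (median 1.14; 8.68% of all genes), Dcn most (2.73 ± 0.68), and in 1 of 6 from day 1 to day 4. Their sums at day 8 were 1334, 1584 and 7447, so that replicate 3 stood apart. Acadl and Hadh, the enzyme genes called from day 1 to day 8, were both lost without replicate 3 (adjusted p = 0.186 and 0.155). Both were also lost without replicate 1 of day 1. With each of the 6 arrays left out in turn, Acadl passed in 1 fit and Hadh in 3. The lowest value of any probe set was 2.34, so that this scale does not show by a 0 which markers were absent. The part of these cells in the changes of the enzyme genes was not tested.

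**Figure D4:**
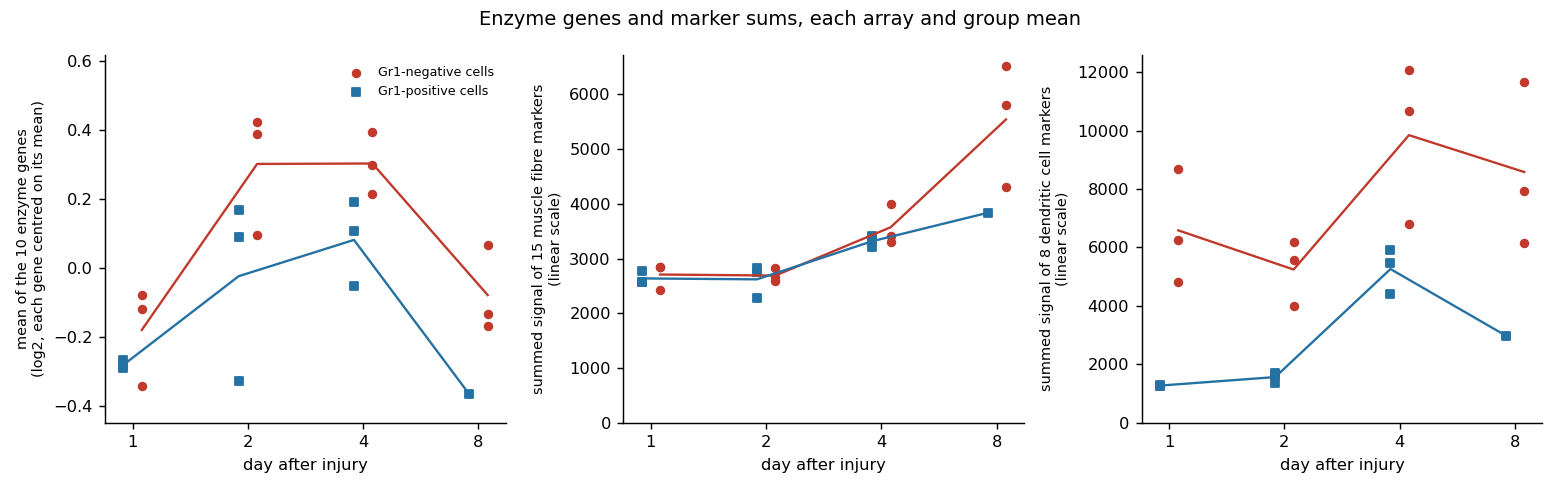
Mean of the 10 enzyme genes per array (left, log2, each gene centred on its own mean over the 22 arrays), summed linear signal of 15 muscle fibre markers (middle) and of 8 dendritic cell markers (right) by day after injury. Points are arrays and lines join group means. In Gr1-negative cells the enzyme mean falls from 0.30 at day 4 to -0.08 at day 8, while the muscle sum rises to between 4302 and 6515.

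The 10 genes varied together to unequal degrees. Over the 22 arrays all 45 pairs had a positive Pearson's r, from 0.167 (Acadvl with Acadm) to 0.907 (Cpt1a with Hadh), with a median of 0.609. Against the mean of the others of the 10, each centred on its own mean and the gene itself left out, r ran from 0.424 for Acadvl to 0.912 for Acaa2. The arrays share groups, days and hybridisations, and r is given as a description. Among all other genes the 10 most like the mean of all 10 enzyme genes were Nit2 (0.970), Gins1 (0.962), Tpmt (0.962), Eci2 (0.961), Alg14 (0.959), Cnpy2 (0.956), Pctp (0.954), Tmem126b (0.953), Lcmt1 (0.953) and Mrpl16 (0.953). Of these, Eci2 is an enoyl-CoA isomerase of the same pathway and stands in the list of other mitochondrial genes.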

How the data were processed

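Total RNA of sorted cells was labelled and measured on 22 Affymetrix arrays, per the labels' protocols. The deposited values are log2 signals that the authors summarized with RMA, per the submitters' processing notes; its version, the platform's processing and a genome build are not given in the sources used here. The table holds 35556 probe sets, of which 21789 name 1 gene; those naming several (1621) or none (12146) were left out. Entrez numbers matched 21698 to RefSeq (GRCm38.p6) names. Per gene, the set of highest mean over all arrays was used, leaving 19938 genes. Values run from 2.34 to 13.9, and high signals can be compressed. No 2 arrays are copies (smallest root mean square difference 0.233).

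Tests used limma 3.58.1 (statmod 1.5.0) in R 4.3.3: a fit to all 22 arrays with 8 group means, eBayes, and Benjamini-Hochberg adjustment over all genes within each of 16 comparisons, with a threshold of 0.05. The code was tested on simulated data. The number of arrays limits the precision. Alternatives were a replicate block, quantile normalization again, array weights, the mean of probe sets, only genes at or above the median mean, leaving out each array, leaving out both day 2 arrays numbered 1, and, added later, the other Hadhb probe set.

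The 10 genes and all lists were chosen with earlier results of these data known. Named are all 10 genes and, per list, up to 5 passing genes with the largest differences and the ends of the range, plus the 10 genes most correlated with the mean of the 10. Within these limits a selection is printed; Cd68, Lyz2, Cx3cr1, Etfb, Ppara and Ppargc1b were added after their values were seen. Of the marker lists, 6 fibroblast, 5 endothelial and 1 red cell gene were measured too. Endothelial markers fell in 1 of 5 cases from day 1 to day 4 and in 2 of 5 from day 1 to day 8 in Gr1-negative cells. Over these steps 1728 and 1947 of all 19938 genes fell. Plots used matplotlib 3.10.9 (Python 3.11.15).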

Additional observations from a re-analysis of the deposited data

How the results depend on the processing

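Counts are of the 10 enzyme genes. Of 25 calls of an enzyme gene, 17 were kept under every alternative other than leaving out single arrays, and 8 also with each array left out: Hadh from day 1 to 2 and Cpt2, Acadm and Hadh from day 1 to 4 in Gr1-negative cells, Cpt1a, Acadm and Hadh from day 1 to 4 in Gr1-positive cells, and Hadha from day 4 to 8 in Gr1-positive cells. Of 2200 differences of single enzyme genes under the alternatives, none of those called reversed its sign. Only those of the 25 calls could stop passing, which 66 did, 57 of them with a single array left out. Another 67 newly passed the threshold. Same-numbered arrays of a day deviated together, with correlations of 0.0981 to 0.646 over 9 pairs, 8 above 0.1, and each of the 9 was highest for its own number. For pairs of different days, 12 of 27 exceeded 0.1 (-0.365 to 0.318). The labels share only a number, so this is a hint from the data. With the replicate block the subset difference counted 4 at day 2, 2 at day 4 and 0 at day 8, its change between days 2 and 4 counted 1 (Hadh, -0.63, adjusted p = 0.0341; 0.0341 to 0.9999 over its alternatives), and in Gr1-positive cells day 1 to 2 and day 4 to 8 each counted 1. With array weights the counts were 2 for the subset difference at day 8. In Gr1-negative cells they were 6 from day 1 to 2, 2 lower from day 2 to 4, 6 lower from day 4 to 8 and 1 from day 1 to 8. In Gr1-positive cells they were 3 from day 1 to 2 and 6 lower from day 4 to 8. The counts over all 19938 genes moved too. With weights, Gr1-negative day 1 to 2 gave 2823 genes against 973, and day 2 to 4 gave 3515 lower against 1333. Without replicate 1 of day 4, Gr1-negative day 4 to 8 gave 523 genes against 2096. With quantile normalization again the subset difference of day 8 counted 2 (1 higher, 1 lower), Gr1-negative day 2 to 4 counted 1 lower and day 1 to 8 counted 4 (3 higher, 1 lower), and Gr1-positive day 1 to 2 counted 1. With only genes at or above the median mean, which tests fewer genes, Gr1-negative day 1 to 2 counted 5 and Gr1-positive day 1 to 2 counted 1. Without both day 2 arrays numbered 1 the subset difference of day 2 counted 1, Gr1-negative day 1 to 2 counted 8 and day 4 to 8 counted 6, and in Gr1-positive cells day 1 to 2 counted 3, day 2 to 4 counted 0 and day 4 to 8 counted 5. The cause was not tested. With each array left out in turn the counts ranged from 0 to 0, 0 to 3, 0 to 0 and 0 to 1 for the subset difference at days 1, 2, 4 and 8. In Gr1-negative cells they ranged from 1 to 4 (day 1 to 2), 0 to 0 (day 2 to 4), 0 to 4 (day 4 to 8), 4 to 6 (day 1 to 4) and 0 to 1 (day 1 to 8), and in Gr1-positive cells from 0 to 3 (day 1 to 2), 0 to 3 (day 2 to 4), 3 to 4 (day 1 to 4) and 1 to 2 (day 4 to 8). For the changes of the subset difference they were 0 throughout. Leaving out the only Gr1-positive array of day 8 gives no value. Quantile normalization moved the median of all genes by at most 0.0516.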
